A study of Danio rerio with 80 samples.

Results

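The genes described here encode the receptors through which dopamine, noradrenaline, serotonin, histamine and acetylcholine act on cells. They were chosen by name from a table of 23473 rows: symbols that begin with drd, htr, adra, adrb, hrh, chrm or chrn followed by a digit, or by a further letter and a digit, with the htra proteases left out. Of 77 such rows, the 45 whose mean over all fish was at least 0 on the log2 scale, that is 1 RPM (a read count scaled to library size), are the members, and 32 rows fell below that level. The level was the only measured value in the choice, and it used the mean over all conditions. Just inside it lay adrb2b (mean log2 of 0.17), chrna3 (0.27) and chrnb4 (0.39), and just outside lay htr5aa (-0.02), drd4b (-0.11) and drd6b (-0.22). By transmitter the members comprise 5 of 11 dopamine, 13 of 15 adrenergic, 11 of 21 serotonin, 2 of 3 histamine, 2 of 8 muscarinic and 12 of 19 nicotinic rows.

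The 80 libraries are poly-A RNA sequencing of single whole brains of wild-type AB zebrafish, aged 219 to 240 days. As embryos and larvae, between 6 hours and 4 days of age, they had lived in 1 of 5 baths, and all then grew up in clean water. The POP10 and POP70 baths held a mixture of persistent organic pollutants (POP) at 10 and 70 times the human blood levels it was modelled on. The PFOS10 and PFOS70 baths held only perfluorooctane sulfonic acid, a fluorinated surfactant, at the amounts in those mixtures (0.3 and 2.06 mg/L), and control baths held the dimethyl sulfoxide solvent that every bath contained. Each condition had 4 exposure replicates, numbered 3 to 6, with 2 females and 2 males from each, so 16 fish per condition and 8 in each of 10 groups. The numbers also fix the age, at 240, 233, 226 and 219 days for numbers 3, 4, 5 and 6 in every condition. Age, sampling day and replicate number therefore cannot be told apart. Fish of 1 exposure replicate shared a bath as larvae. A p-value over fish therefore covers differences between fish and not differences between baths.

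Monoamine receptors are, with few exceptions, G protein-coupled: some raise cyclic AMP through Gs, some lower it through Gi, and some release calcium through Gq. Muscarinic acetylcholine receptors belong to the same class, whereas nicotinic receptors are ion channels assembled from several subunits that open within milliseconds. In the fish brain the monoamines are made by small groups of cells that project widely, while the receptors sit on many cell types in a pattern that differs between regions. Among the 45 members, 18 encode Gi-coupled, 8 Gq-coupled and 7 Gs-coupled receptors, and 12 encode channel subunits.

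The libraries held 9.01 to 20.35 Mreads (1 Mread is 1e+06 reads, median 12.14), and 1 RPM stood for 7.12 to 14.4 reads. Markers of neurons averaged a log2 level of 9.20 to 9.93 per fish, against 0.11 to 4.21 for skeletal muscle and 0.21 to 3.095 for the pituitary. Erythrocyte markers averaged 4.63 to 8.55, and retina and pineal markers -0.87 to 5.84, so blood genes were present in every library and eye or pineal genes at very different levels. Telencephalon and cerebellum markers varied more between fish than the neuron markers did, at 3.27 to 6.80 and 4.67 to 8.22. In whole-brain libraries, fewer cells of a type and less RNA per cell cannot be told apart.

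Receptor transcripts were scarce. A typical member stood at 6.80 RPM (the median over members of the mean over fish), 27 of the 45 averaged under 10 RPM on the log2 scale, and 9 had no read in at least 1 fish. Levels are per library and not per length, so they are given gene by gene and not ranked between genes. Of the dopamine receptors, all 5 members belong to the class that lowers cyclic AMP: drd3 had a median of 37.2 RPM (16.5 to 76.8) and drd4-rs of 24.4 RPM (13.2 to 43.9). The rows for drd1a and drd1b, receptors of the class that raises cyclic AMP, had medians of 0.115 and 0.603 RPM and did not qualify. Among the adrenergic receptors, adrb1, which raises cyclic AMP, had a median of 30.6 RPM (1.20 to 72.1), and adra1d, which acts through Gq, had 19.0 RPM (11.7 to 34.5).

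For serotonin, the inhibitory receptor genes htr1aa and htr1d had medians of 50.1 RPM (33.5 to 73.0) and 25.9 RPM (17.6 to 40.6). The serotonin-gated channel genes htr3a and htr3b lay at 0.107 and 0.103 RPM and had no read in 55 and 75 of the 80 fish. The histamine autoreceptor gene hrh3 had a median of 87.1 RPM (24.3 to 206.9), and hrh2a, which raises cyclic AMP, had 2.68 RPM (0.117 to 5.74). Of the muscarinic genes, chrm4a (Gi) had 22.3 RPM (5.20 to 61.5) and chrm3a (Gq) had 3.57 RPM (0.397 to 12.22). The nicotinic beta subunit gene chrnb2b had 97.5 RPM with the narrow range of 75.6 to 121 RPM, and chrnb3a had 32.7 RPM (20.6 to 43.5). The spread between fish thus ran from less than a doubling for chrnb2b to more than 100-fold for receptors such as drd4a, at 0.199 to 29.0 RPM.

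**Figure D1:**
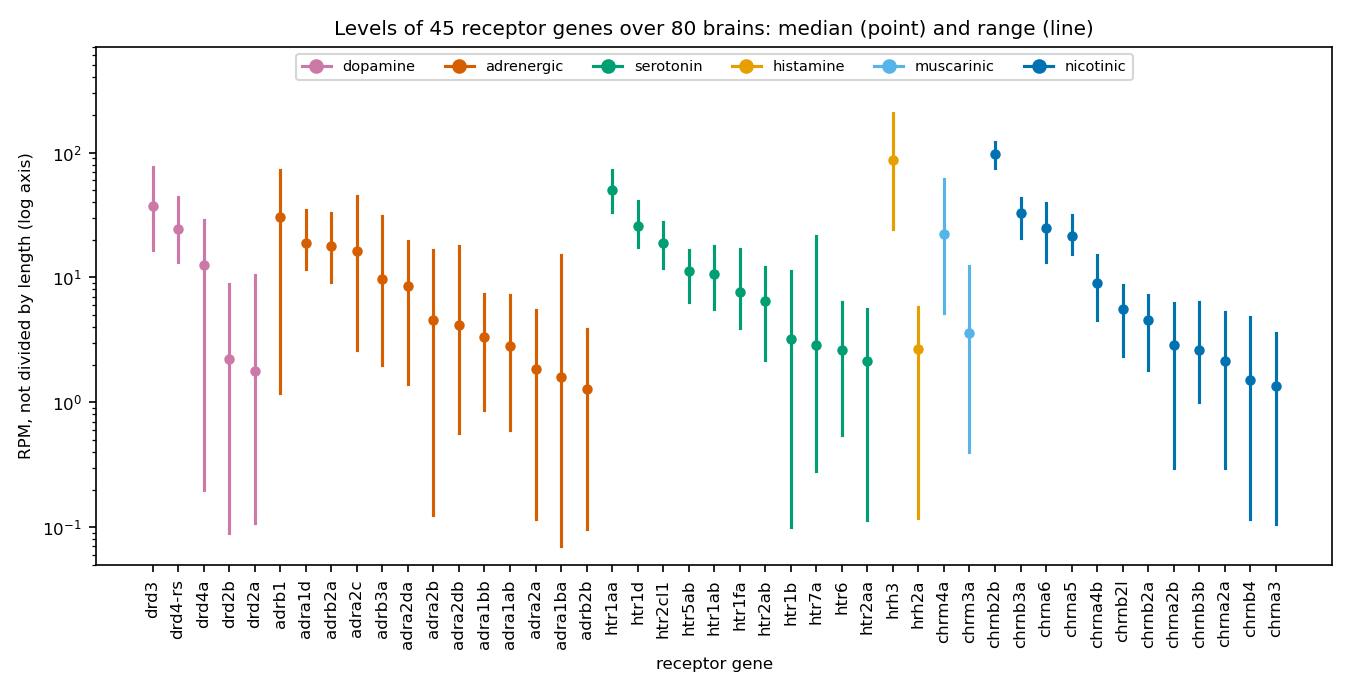
Level of each of the 45 receptor genes over 80 brains in RPM on a log axis, not divided by transcript length, with a point for the median and a line for the range, coloured by transmitter family. chrnb2b lies between 75.6 and 121 RPM in every fish, whereas drd4a spans 0.199 to 29.0 RPM.

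Spread was larger than counting error for most members. After group and age were fitted, the SD between fish had a median of 0.63 log2 units over the members and 0.36 over all 16170 genes at or above 0 log2, which were the genes tested. It was more than 2 times the SD expected from read counting alone for 35 of the 45 members. The same count was not taken over all genes, and the 2 medians were not matched for level. For hrh3 the SD between fish was 0.60 against 0.05 from counting, and for adrb1 it was 0.92 against 0.12. Condition held a median of 5.84% of a member's variance (4.66% over all tested genes), sex 0.913% (0.903%), and age with its replicate number 11.3% (14.9%).

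Whether exposure in the first days left a difference in adult receptor genes was asked with limma's moderated test, adjusted by Benjamini-Hochberg over all 16170 genes with a threshold of 0.05. No member passed in any of the 4 exposures. Of all genes the same test called 0.0124% for POP10 (2 genes), 0% for POP70, 0.00618% for PFOS10 (1 gene) and 0% for PFOS70. Without adjustment, p was under 0.05 for 3 members (6.67%) with POP10, beside 4.04% of all genes, and for 3 (6.67%) with POP70, beside 1.82%. It was so for 9 members (20%) with PFOS10, beside 13.8% of all genes, and for 4 (8.89%) with PFOS70, beside 6.09%. The F test for any exposure called no member and 0.0309% of all genes (5 genes), and the test for a difference between the sexes in the response called no member and 0% of all genes. The unadjusted counts in these tests were 5 members (11.1%), beside 4.1% of all genes, and 0 members, beside 1.53%. With voom on the recovered reads, 0 members passed in any of these 6 tests.

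Among the members, the nicotinic subunit gene chrnb3b on chromosome 14 gave the smallest p in POP10 and in POP70. Its neighbour chrnb2l was among the 3 of smallest p in each. chrnb3b encodes a beta subunit that joins receptors without forming the agonist site, and lies at 41518257 to 41530140 (GRCz11), 3069 bases from chrnb2l at 41490262 to 41515188. chrnb3b had a median of 2.67 RPM (1.49 to 6.36) in POP10 and 3.39 RPM (1.52 to 5.79) in POP70, against 1.97 RPM (1.17 to 4.73) in control fish. The ranges overlapped over most of their width. Its log2 difference was 0.57 ± 0.22 (SE) in POP10 (adjusted p = 0.93) and 0.56 ± 0.22 in POP70 (adjusted p = 1.0), with 16 fish per condition, and 0.53 ± 0.22 in PFOS70 (adjusted p = 0.72). Means of exposure replicates were higher than control at 4 of 4 numbers in POP10 and at 3 of 4 in POP70. As chrnb3b was picked for its p on the same fish, this count is a description and no further test.

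The neighbour chrnb2l had a median of 5.99 RPM (2.34 to 7.95) in POP10 and 5.96 RPM (3.28 to 8.65) in POP70, against 4.76 RPM (2.799 to 6.72) in control fish. Its differences were 0.32 ± 0.15 in POP10 (adjusted p = 0.93) and 0.30 ± 0.15 in POP70 (adjusted p = 1.0), higher at 4 of 4 numbers in each. At number 6 in POP10 the difference was only 0.00929. chrnb2l too was picked for its p on these fish, so the count of numbers is a description. These comparisons share the same 16 control fish. The other value among the smallest in POP10 was that of adra2da, an inhibitory adrenergic receptor gene, at 0.51 ± 0.24 (adjusted p = 0.93). In POP70 it was that of htr1fa, an inhibitory serotonin receptor gene, at -0.29 ± 0.13 (adjusted p = 1.0).

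In PFOS10 the smallest p belonged to htr1aa, the serotonin receptor that raphe neurons also use as an autoreceptor. Its median was 45.9 RPM (33.5 to 57.7) in PFOS10 fish, against 50.9 RPM (42.9 to 64.9) in control fish, and the difference was -0.22 ± 0.07 (adjusted p = 0.36). Exposure replicate means on the log2 scale were 5.52, 5.49, 5.55 and 5.45 in PFOS10 for numbers 3, 4, 5 and 6, against 5.76, 5.69, 5.64 and 5.78 in control. The 4 PFOS10 means all lay below the 4 control means. As the gene was picked for its p on the same fish, this order is a description and no further test. The inhibitory receptor genes adra2a (1.03 ± 0.39) and chrm4a (0.56 ± 0.22) followed, both with adjusted p = 0.36 and both higher at 4 of 4 numbers. They too were picked for their p on these fish. How many of all genes were higher at 4 of 4 numbers was not counted.

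In PFOS70 it was htr2aa, a Gq-coupled serotonin receptor gene. Median levels were 2.83 RPM (1.30 to 5.05) in PFOS70 fish and 1.56 RPM (0.114 to 3.15) in control fish, with a difference of 1.04 ± 0.34 (adjusted p = 0.72). Replicate means were 1.08, 1.60, 1.18 and 2.14 in PFOS70, against -0.11, 0.80, 0.16 and 0.97 in control, so each PFOS70 mean lay above each control mean, again in a gene picked for its p on these fish. The median fish had 21 reads of this gene, for which the SD between fish was 0.89 log2 units and that expected from counting 0.42. chrnb3b and adra2db (0.78 ± 0.37, adjusted p = 0.72) were next.

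**Figure D2:**
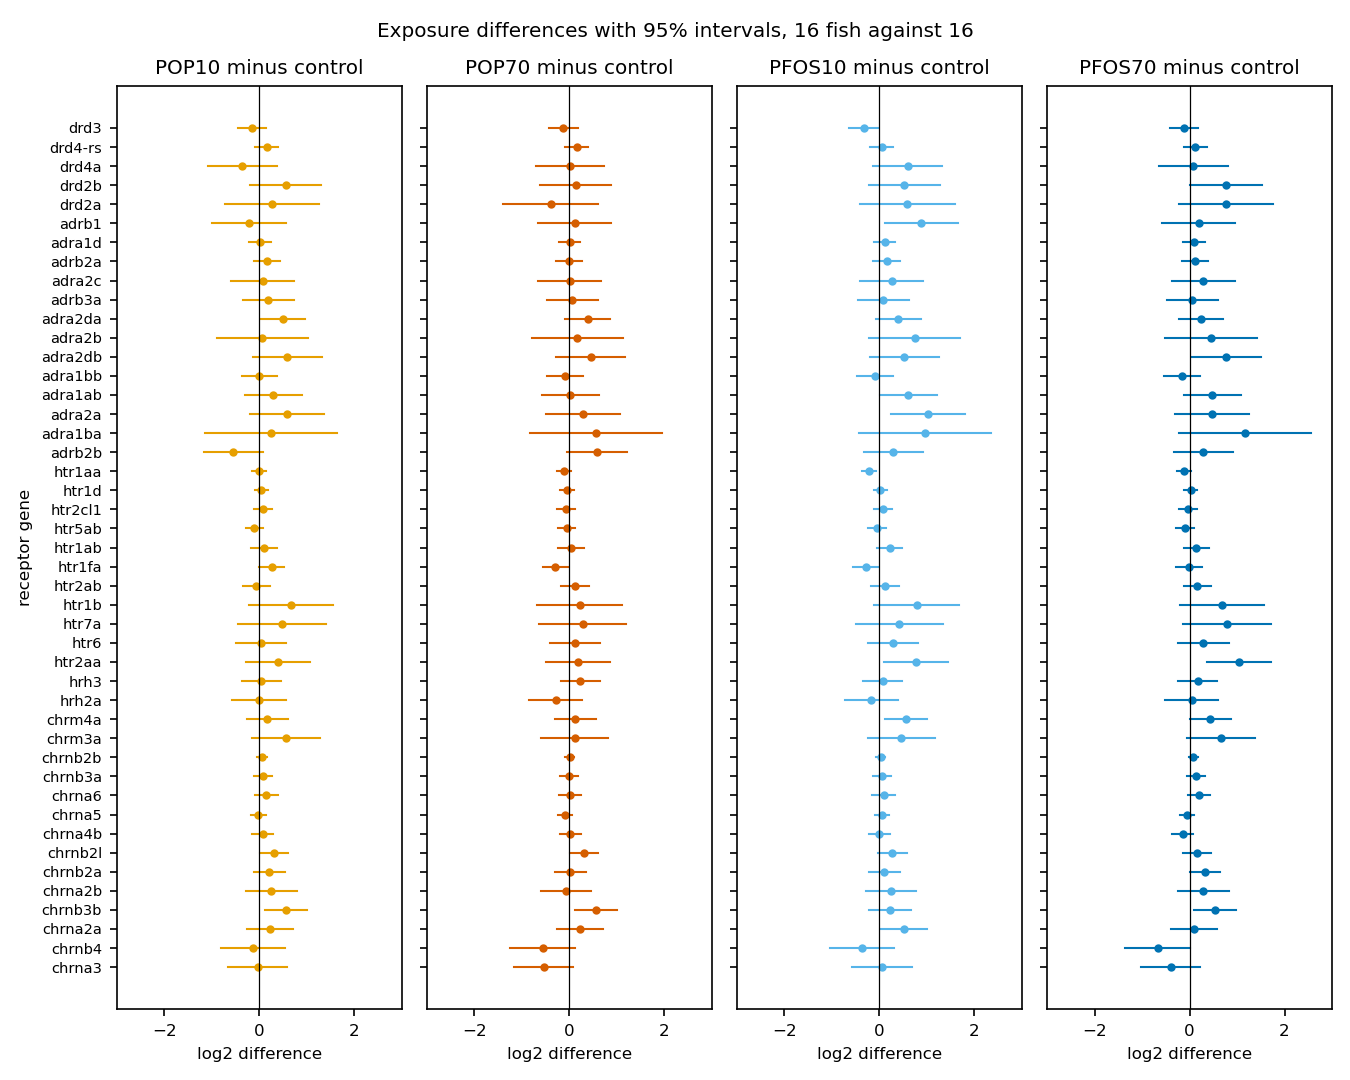
Log2 difference from control of each receptor gene in the 4 exposures, 16 fish against 16, with 95% intervals from limma. Most intervals hold 0, and those that do not, such as chrnb3b at 0.57 in POP10, did not pass adjustment over all genes.

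Signs of the differences were counted as well. Mean levels were higher than control for 34 of 45 members after POP10, 31 after POP70, 37 after PFOS10 and 35 after PFOS70, with median log2 differences of 0.10, 0.03, 0.21 and 0.17. Over all tested genes 56.1%, 55.2%, 65.2% and 60.6% were higher, with medians of 0.02, 0.01, 0.06 and 0.04. These counts moved with the first principal component of the other genes, called the composition component here, which held 40% of their variance. It averaged 0.40 ± 1.09 (SD, n = 16) in PFOS10 and -0.36 ± 0.80 in control, in units of its SD over all fish. With that component as a covariate, chosen after the values were seen, 29, 19, 21 and 31 members were higher, and the medians were 0.06, -0.02, -0.01 and 0.08. All tested genes then had 44.5%, 45.7%, 49.5% and 46.6% higher. With quantile normalization the members higher were 31, 25, 20 and 27, the medians 0.07, 0.0047, -0.01 and 0.05, and the shares of all genes 48.1%, 48.4%, 40.6% and 42.4%, so the median over members changed sign in PFOS10 with either setting and in POP70 with the covariate.

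htr1fa had the largest share of variance between conditions of any member, 25.4%. Medians were 9.64 RPM (6.21 to 17.02) in POP10, 6.70 RPM (4.36 to 13.5) in POP70, 6.44 RPM (3.92 to 9.42) in PFOS10 and 7.58 RPM (5.28 to 14.2) in PFOS70, against 8.04 RPM (5.05 to 13.8) in control fish. The POP10 median lay above control and the other 3 below it, the ranges overlapped, and limma's tests of these differences did not pass. The limma F test for any exposure had adjusted p = 0.41 for this gene. Set against each other, POP10 exceeded PFOS10 by 0.56 ± 0.13 (adjusted p = 0.72) and POP70 lay below POP10 by a difference of -0.56 ± 0.13 (adjusted p = 0.72).

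Mixture and single-compound baths were compared at matched PFOS amounts, and the high with the low level of each, 4 comparisons in all. No member passed in POP10 against PFOS10 (0% of all genes called), POP70 against PFOS70 (0%), POP70 against POP10 (0%) or PFOS70 against PFOS10 (0%). In POP10 against PFOS10, the values after htr1fa were htr1aa at 0.21 ± 0.07 and adrb1 at -1.10 ± 0.39, each with adjusted p = 0.74. In POP70 against PFOS70 they were htr2aa at -0.85 ± 0.34, drd2a at -1.16 ± 0.50 and htr1fa at -0.28 ± 0.13, each with adjusted p = 0.96. The adrenergic gene adrb2b stood at 1.43 RPM (0.624 to 3.85) in POP70 and 0.786 RPM (0.127 to 1.95) in POP10, a difference of 1.12 ± 0.31 (adjusted p = 1.0), next to chrna3 at -0.51 ± 0.31 (adjusted p = 1.0). In PFOS70 against PFOS10 the smallest p were those of htr1fa (0.28 ± 0.13), adrb1 (-0.69 ± 0.39) and chrna2a (-0.43 ± 0.24), each with adjusted p = 1.0.

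Counts in 2 tests rested on a replicate number. Without number 3, the fish of 240 days, POP70 against PFOS70 called 8 members (11.4% of all genes), all lower in POP70: adra2b (-1.18), chrm3a (-1.07), drd2a (-1.91) and htr2aa (-1.19) with adjusted p = 0.0271, then htr1b, adra1ab, chrm4a and chrna2b. The F test for any exposure then called 6 members (8.59% of all genes), adra2b, htr1fa, chrm4a, drd2a, chrm3a and htr2aa, with adjusted p from 0.0393 to 0.0459. These adjusted p are over 12 fish per condition that had shared the few remaining baths, and the fit had no term for the bath. They therefore do not cover differences between baths. With all fish, a fit with a correlation within exposure replicates (0.22) called 0 members in either test. Values from that fit without number 3 are not given. The 8 genes correlated with the composition component at r of 0.62 (htr2aa) to 0.88 (adra2b) over all fish. Without number 3 that component averaged -0.118 ± 0.612 (SD, n = 12) in POP70 and 0.776 ± 0.778 in PFOS70, and its part in these calls was not tested.

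**Figure D3:**
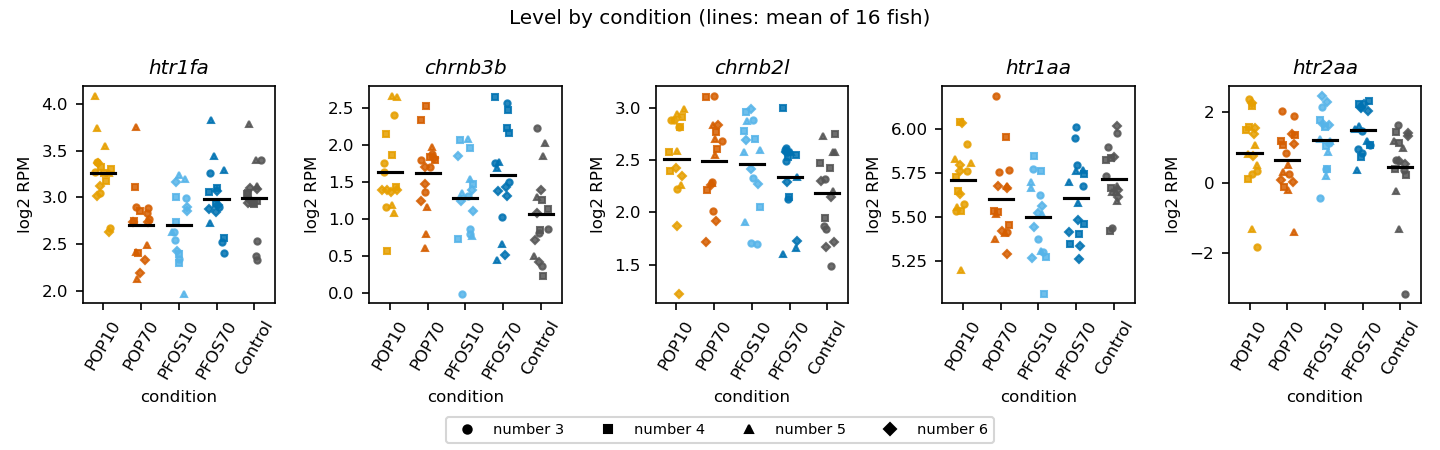
Log2 level of 5 receptor genes by condition, 1 point per fish with a shape for each replicate number and a line for the mean of 16 fish. In htr1fa the POP10 mean of 3.26 stands above the control mean of 2.998, and the POP70 and PFOS10 means of 2.704 and 2.708 stand below it.

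No member passed the test between females and males. In control fish 0% of all genes were called, and the values of smallest p were chrna4b at 0.22 ± 0.16 and chrnb2l at -0.28 ± 0.21, female minus male, with adrb3a at -0.50 ± 0.38 (adjusted p = 1.0 for each, 8 fish against 8). Over all conditions, 40 females against 40 males, 1.06% of all genes were called (171 genes) and 0 of 45 members. An unadjusted p under 0.05 was found for 5 members (11.1%), beside 10.9% of all genes. drd3 had a median of 39.2 RPM (23.3 to 74.8) in females and 33.1 RPM (16.5 to 76.8) in males, a difference of 0.27 ± 0.10 (adjusted p = 0.19, and 0.0335 when libraries were weighted by quality). adra1bb (-0.31 ± 0.12, adjusted p = 0.25) and htr1aa (-0.11 ± 0.05, adjusted p = 0.31) did not pass. Of the genes that act on these receptors' signals, rgs4, which speeds the shut-off of G proteins, was lower in females at a mean log2 of 5.08 ± 0.34 against 5.55 ± 0.42 in males (SD, n = 40 each, difference -0.47, adjusted p = 0.000386), and it was the only 1 of 21 regulators and effectors downstream that was called. Of 9 tested oligodendrocyte markers 4 were called, all lower in females (cldnk, olig2, plp1b and mbpa, list median -0.331), and of 6 microglia markers 1 (apoeb, median -0.336). Lower calls also fell on 2 radial glia markers, 1 neuron marker and 1 of 7 erythrocyte markers, and their part in the rgs4 difference was not tested.

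Age with its replicate number gave many more calls than exposure or sex. The F test over the 4 ages called 24 of 45 members (53.3%) beside 62.5% of all 16170 tested genes. These shares were not matched for level or for spread between fish. In these comparisons 219 days is the reference, each age had 20 fish, and the fit held the 10 groups. At 226 days 5 members had changed, all lower (20.5% of all genes called, 11.2% higher and 9.31% lower). The called genes were htr2aa (-0.99 ± 0.28, adjusted p = 0.00952), drd2a (-1.35 ± 0.39), adra1ab (-0.79 ± 0.24), chrnb2b (-0.13 ± 0.04) and adrb2a (-0.32 ± 0.12). At 233 days 2 members had changed (21.5% of all genes, 16.1% higher and 5.4% lower): chrnb2l was higher by 0.38 ± 0.13 (adjusted p = 0.0207) and chrnb2b lower, at -0.12 ± 0.04 (adjusted p = 0.0265). The count at 226 days was 10 without control fish, 3 without POP10 and 1 without PFOS10. It was 3 with a correlation fitted within exposure replicates (lowest adjusted p = 0.0331) and 1 over the means of exposure replicates. With the composition component as a covariate it was 0 (lowest adjusted p = 0.0534), beside 9.6% of all genes called. The count at 233 days was 0 without control, POP10 or POP70 fish, and 1 without PFOS10. It was 0 with the correlation (lowest adjusted p = 0.051) and 0 over means of exposure replicates (lowest adjusted p = 0.0942). For the fits without a condition, with the correlation or over means, shares of all genes called are not given. Those shifts in count therefore cannot be read as particular to the receptors. The split of calls over all genes at these ages also moved with the scaling. At 226 days 45.4% of the called genes were lower, and 60.7% with voom. With voom 10 members were called lower and 1 higher, beside 27.9% of all genes called. Quantile normalization called 5 lower and 3 higher, beside 30.3% of all genes. At 233 days 25.1% were lower, against 36% with quantile normalization and 40.2% with voom. Both called the same 2 members, beside 23.3% and 22.4% of all genes.

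At 240 days 19 members had changed, 17 lower and 2 higher, 42.2% of the members beside 39.8% of all genes (32.6% lower and 7.18% higher). By family the calls were 8 of 13 adrenergic, 4 of 5 dopamine, 1 of 2 histamine, 2 of 2 muscarinic, 2 of 12 nicotinic and 2 of 11 serotonin receptor genes. By coupling, 11 of 18 Gi, 4 of 8 Gq and 2 of 7 Gs receptors were called, and 2 of 12 channel subunits. Members under 10 RPM supplied 14 of the 19 calls, that is 14 of 27 members at that level, beside 5 of 18 at 10 RPM or more. These shares were not taken over all genes of those levels. The count was 12 without PFOS10, 8 without PFOS70, 18 with the correlation within exposure replicates and 17 over their means. Shares of all genes called are not given for these fits, so the shifts cannot be read as particular to the receptors. The count was 0 when the composition component was a covariate (41 of all 16170 genes called). Age was not removed from that component, so holding it constant takes age differences out with it. The split of calls rested on the scaling, while none of the 19 members changed sign with quantile normalization. Quantile normalization called 7 members lower and 14 higher, beside 53.2% of all genes called, and 9 of these 21 were among the 19. It moved the median over all genes to 0.08, against -0.08 in the deposited scaling, and the share of lower genes among all called to 41.9%, against 82%. With voom on the recovered reads, 17 members were lower and 2 higher, as in the deposited scaling, beside 39.6% of all genes called.

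adrb1 had the largest share of variance between ages, 28.4%. Its median was 11.2 RPM (1.20 to 59.2) at 240 days and 38.7 RPM (10.3 to 59.0) at 219 days, with 37.0 and 31.6 RPM at 226 and 233 days. The fish of 240 days overlapped the others and reached further down. The difference was -1.50 ± 0.28 on the log2 scale (0.354-fold, adjusted p = 1.46e-05), lower in 5 of 5 conditions. drd4a, an inhibitory dopamine receptor gene, followed at 7.01 RPM (0.199 to 18.5) at 240 days and 13.6 RPM (5.02 to 21.3) at 219 days (-1.25 ± 0.27, adjusted p = 0.000126, lower in 5 of 5 conditions).

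Among the other inhibitory receptors, adra2b stood at 2.11 RPM (0.125 to 16.7) at 240 days and 6.65 RPM (2.00 to 15.4) at 219 days, a difference of -1.72 ± 0.38. Dopamine receptor genes drd2a and drd2b, whose products act as autoreceptors as well as on target cells, had 0.585 RPM (0.107 to 8.24) and 1.21 RPM (0.0894 to 8.86) at 240 days, against 2.26 RPM (0.453 to 10.4) and 3.47 RPM (0.940 to 6.68) at 219 days. The differences were -1.74 ± 0.39 and -1.31 ± 0.30. The lowest value of each stands for 0 reads, found in 2 fish for drd2a and 1 for drd2b, so both differences rest in part on that floor. htr1b, a serotonin receptor on nerve endings, fell to 1.59 RPM at 240 days, against 4.13 RPM at 219 days (-1.50 ± 0.35). These 4 were lower in 5 of 5 conditions, with adjusted p between 0.000154 and 0.000368. The size of the drop differed between conditions. In POP70 the differences were -0.0473 (adra2b), -0.116 (drd2a), -0.572 (drd2b) and -0.312 (htr1b). In PFOS70 they were -3.78, -3.34, -1.72 and -2.89. With quantile normalization adrb1 (-1.22), drd4a (-0.85), adra2b (-1.03), drd2a (-0.89), drd2b (-0.61) and htr1b (-0.76) were also called lower, with adjusted p from 7.53e-05 to 0.0158.

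Among Gq and Gs receptor genes, 4 of 8 and 2 of 7 were called, all lower. chrm3a, a muscarinic Gq gene, had a median of 1.59 RPM (0.397 to 10.1) at 240 days and 4.08 RPM (1.26 to 12.22) at 219 days (-1.11 ± 0.29), and hrh2a, a Gs gene, had 1.94 and 3.09 RPM (-0.89 ± 0.23). The nicotinic alpha subunit gene chrna2b (-0.86 ± 0.21), the adrenergic genes adra2db (Gi, -1.09 ± 0.30) and adra1ab (Gq, -0.86 ± 0.24), and the muscarinic gene chrm4a (Gi, -0.58 ± 0.18) complete the 12 members of smallest p. The other 5 lower members were adra2a (-1.02), adra2c (-0.84), adra2da (-0.58), adra1ba (-1.67) and htr2aa (-0.79). adra1ba had a median of 0.646 RPM at 240 days and no read in 3 fish. hrh2a, adra2a and htr2aa each had no read in 1 fish, so the differences of adra1ba and of these genes rest in part on the floor. hrh2a and adra2c were lower in 5 of 5 conditions, adra2c at only -0.0113 in control and -0.13 in POP70. The other 9 of these 11 members were lower in 4 of 5. The exception was POP70 for 7 of those 9, with differences from 0.112 (chrna2b) to 0.824 (adra1ab), and control for adra2a (0.847) and adra1ba (0.15). With quantile normalization chrm4a (-0.38, adjusted p = 0.0306) was still called, and the other 10 of the 11 were below 0 but not called. With composition as a covariate, signs are given for the 12 members of smallest p only. Of these, adra2b (0.18), drd2a (0.22), drd2b (0.06), htr1b (0.21), chrm3a (0.22), adra2db (0.24) and chrm4a (0.30) changed sign, none of them called. Over all members 31 were then higher, against 14 without the covariate.

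The 2 members that were higher at 240 days were drd3 and chrna4b. drd3 had a median of 42.6 RPM (20.50 to 76.8) at 240 days and 33.2 RPM (16.5 to 56.1) at 219 days (0.39 ± 0.12, adjusted p = 0.00889, higher in 4 of 5 conditions). chrna4b, an alpha subunit of the main brain nicotinic receptor, had 9.59 RPM (5.96 to 15.1) and 8.30 RPM (4.55 to 12.5) at these ages (0.26 ± 0.10, adjusted p = 0.0249, higher in 5 of 5 conditions). In PFOS10 the difference of chrna4b was only 0.0077. drd3 and chrna4b were also called higher with quantile normalization, at 0.52 and 0.61. So within the dopamine family drd3 was higher while drd2a, drd2b and drd4a were lower, in either scaling. Summed over the 5 dopamine genes the median summed level was 79.1 RPM at 240 days and 78.5 RPM at 219 days. That sum is not per length and gives most weight to genes of high level such as drd3, so it cannot show whether 1 gene offsets another. For the adrenergic sum the medians were 87.6 RPM (60.4 to 215) and 142 RPM (89.3 to 235).

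**Figure D4:**
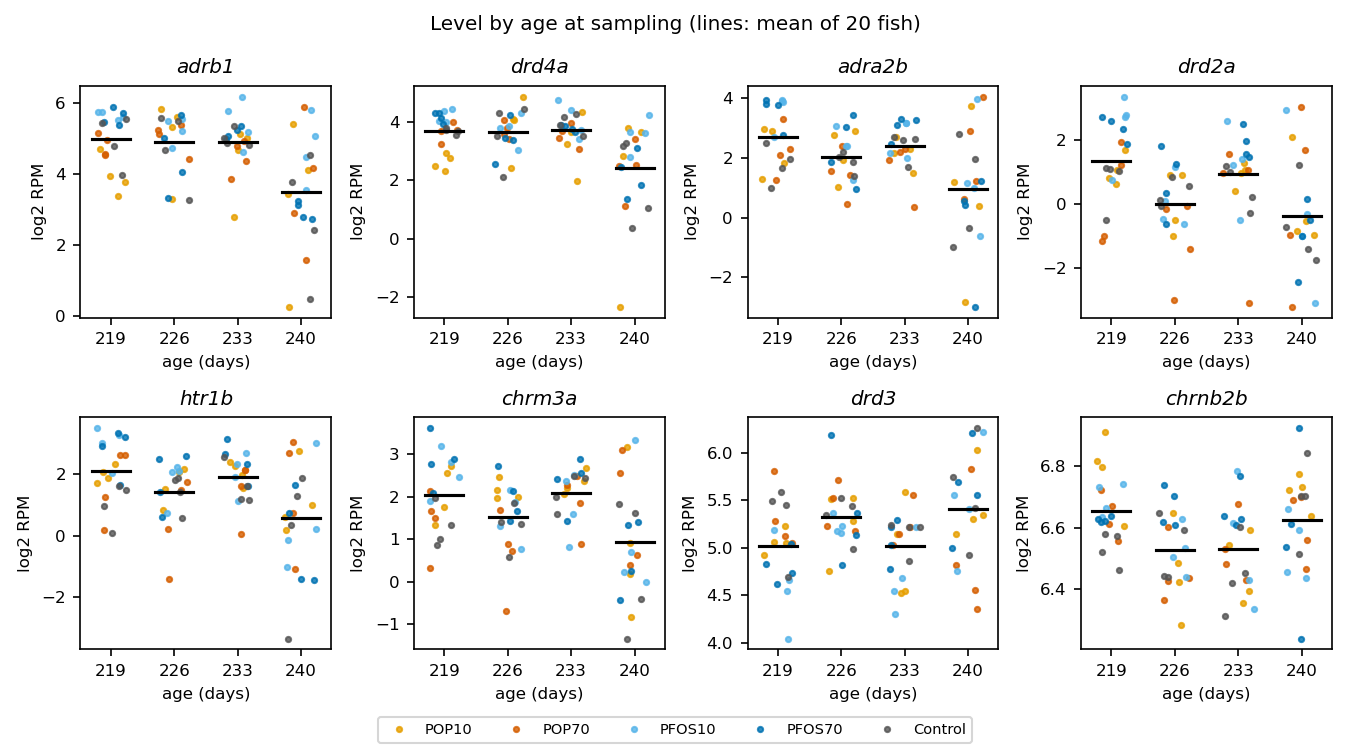
Log2 level of 8 receptor genes by age at sampling, 1 point per fish coloured by condition, with lines for the mean of 20 fish. At 240 days the mean of adrb1 is 3.49 beside 4.99 at 219 days and some fish lie near 0, while drd3 is higher, with means of 5.41 and 5.02.

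Genes that act below the receptors were called in the same comparison, in which 39.8% of all genes were called (32.6% lower), and 41 of 16170 with the composition covariate. Of 13 tested alpha subunits of G proteins, 9 were lower and 1 higher (list median -1.21), among them gnas, the Gs subunit (-1.41 ± 0.21), gnao1a (-1.21 ± 0.19), gnal2 (-0.62 ± 0.10) and gna11a (-2.18 ± 0.37), while gnai1 was higher (0.11 ± 0.04). Of 11 adenylyl cyclases, which make cyclic AMP, 8 were lower and 1 higher (median -1.02), led by adcy5 (-1.14 ± 0.20) and adcy3a (-1.33 ± 0.25). All 3 phospholipase C beta genes were lower, plcb3 at -0.20 and 0.03 with quantile normalization, and of 7 receptor kinases and arrestins, which switch receptors off, 6 were lower and 1 higher (median -0.89), led by grk3 (-1.88 ± 0.33). With quantile normalization the lower calls in these 4 lists were 9, 7, 2 and 6, where 53.2% of all genes were called and 41.9% of those were lower. With the composition covariate the lower calls were 0 in each list. Over all tested genes the median was -0.08.

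Genes for transmitter supply gave mixed counts, to be read against the 39.8% of all genes called. Of 14 dopamine and noradrenaline genes 3 were lower and 3 higher, with th2, a tyrosine hydroxylase, higher by 0.53 ± 0.15 and the dopamine transporter gene slc6a3 lower (-0.64 ± 0.26). Of 4 serotonin and histamine genes none passed, and of 6 acetylcholine genes 2 were lower, slc44a2 (-0.87 ± 0.13) and ache, which breaks acetylcholine down (-0.22 ± 0.06). Among 5 genes for nicotinic receptor assembly nrg1 (-0.46 ± 0.15) and lypd6 (-0.67 ± 0.24) were lower. Of 21 regulators and effectors downstream 6 were lower and 3 higher, with rgs7b (-2.17 ± 0.38) and pde10a (-1.77 ± 0.33) at one end and rgs5b (0.50 ± 0.10) at the other. With quantile normalization slc6a3 (-0.10), nrg1 (-0.10) and lypd6 (-0.04) were not called, no dopamine or noradrenaline gene was lower and 3 were higher, and 6 of the 21 downstream genes were lower and 9 higher. That scaling called 53.2% of all genes.

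Values of other markers moved with age as well. The composition component averaged -0.88 ± 1.19 (SD, n = 20) at 240 days and 0.61 ± 0.88 at 219 days. Cerebellum markers averaged 6.98 ± 0.76 at 240 days and 7.51 ± 0.33 at 219 days: 3 of 8 were called, all lower (cbln12 at -1.06, gabra6b at -1.50 and ca8 at -0.40), and the other 5 did not pass. Telencephalon markers averaged 5.59 ± 0.64 and 5.46 ± 0.77, with 0 of 8 called. Of 10 neuron markers 3 were called, all lower. Oligodendrocyte markers averaged 7.45 ± 0.33 at 240 days and 7.83 ± 0.36 at 219 days, with 2 of 9 called, both lower (mag and mbpb), and 0 of 9 higher. Of 9 radial glia markers slc1a3b was called lower and her4.1 higher, and of 7 habenula markers GPR151 was lower. trh was higher among 9 hypothalamus markers and pomca among 2 of the pituitary. Their part in the receptor differences was not tested. The composition covariate cannot test it, as the component was not shown to measure tissue make-up and itself differed with age.

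Members also varied together between fish. Across 80 fish, 409 of 990 pairs of members were correlated with Benjamini-Hochberg adjusted permutation p under 0.05 for both Pearson's r and Spearman's rho (990 relations, 100000 permutations), 338 positively and 71 negatively. The same count was not taken for pairs of other genes, so whether it is particular to these receptors cannot be said. Fish were permuted across ages and conditions, so shifts shared by an age or a condition count as correlation. Much of this ran along the composition component: r exceeded 0.5 in 155 pairs, and in 30 once the component was removed from both genes. Against the component itself, adra2b had r = 0.88 (rho = 0.93), drd2a 0.86 (0.87), htr1b 0.86 (0.88) and chrm4a 0.85 (0.87), whereas drd3 had r = -0.72 (rho = -0.69), chrna4b -0.46 (-0.45) and htr1aa -0.40 (-0.42). Every adjusted permutation p in these 7 of 45 relations lay between 1.96e-05 and 0.000486. Without the 2 fish farthest from the median of the receptor gene, r was 0.93 for adra2b and -0.69 for drd3, and with age means removed it was 0.84 and -0.68.

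The closest pair was adrb1 and drd4a, on chromosomes 12 (30442230 to 30443562) and 25 (4707173 to 4733221), with r = 0.92 and rho = 0.86 (permutation p = 1e-05 for each, the smallest possible; adjusted p = 5.18e-05 and 5.16e-05). Their r was 0.90 without the 2 fish farthest from the median of adrb1, between 0.83 and 0.93 within the 4 ages, and 0.89 with composition removed. Both followed the mean of the 8 tested cerebellum markers, a list taken from known cerebellar genes. drd4a had r = 0.92 (rho = 0.80) and adrb1 r = 0.88 (rho = 0.83) with the mean of that list, with adjusted permutation p of 9.44e-05 for r and 9.29e-05 for rho over 585 relations of 45 members with 13 marker lists. Within ages r lay between 0.82 and 0.93 for drd4a and between 0.82 and 0.91 for adrb1, and without the 2 extreme fish it was 0.88 and 0.87. Of all 16162 tested genes outside the list, 0 had a higher r with it than drd4a and 10 had a higher r than adrb1, where the median gene had 0.12.

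The same relations were taken marker by marker. With cbln12, a gene of granule cells, r was 0.95 for adrb1 and 0.94 for drd4a, and for adrb1 it was 0.94 without the 2 extreme fish. For gabra6b, a receptor subunit of granule cells, it was 0.83 and 0.77. Among Purkinje cell genes ca8 had 0.78 and 0.76, aldoca 0.66 and 0.78, and pvalb7 0.54 and 0.56. For zic1 r was 0.575 with adrb1 and 0.733 with drd4a, and for zic4 it was 0.55 and 0.693. Without the 2 extreme fish r with adrb1 was 0.391 for pvalb7 and 0.457 for zic1. For olig2, which is also a gene of oligodendrocytes, r was 0.18 and 0.11 (adjusted permutation p = 0.11 and 0.32). The other 14 of these 16 relations had adjusted permutation p for r between 1.23e-05 and 2.29e-05. Their rho ran from 0.27 to 0.91, with adjusted permutation p for rho up to 0.0188 (adrb1 with pvalb7). Whether these r differ from each other was not tested. The fish lowest in drd4a, a POP10 male of 240 days at 0.199 RPM, was also the lowest of all 80 in the cerebellum mean, at 4.67.

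Forebrain markers went with other members. hrh3 had r = 0.78 and rho = 0.79 with the mean of the 8 tested telencephalon markers, and drd4-rs had r = 0.71 and rho = 0.66, with adjusted permutation p of 9.44e-05 and 9.29e-05 in each case. Without the 2 extreme fish r was 0.76 and 0.70, and with age means removed it was 0.78 and 0.73. The adrenergic genes adra2c (r = 0.62, rho = 0.63) and adra1ba (0.51, 0.53) followed at the same adjusted p, and these 2 genes were the second closest pair of members (r = 0.88, rho = 0.91, r = 0.78 with composition removed). Of the genes outside the list, 48 (0.297%) exceeded hrh3 in r and 96 (0.594%) exceeded drd4-rs. htr1d, by contrast, went down as cerebellum markers went up (r = -0.58, rho = -0.49, r = -0.55 without the 2 extreme fish, same adjusted p). How much of each brain region a library holds was not measured separately, and its part in these relations was not tested.

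**Figure D5:**
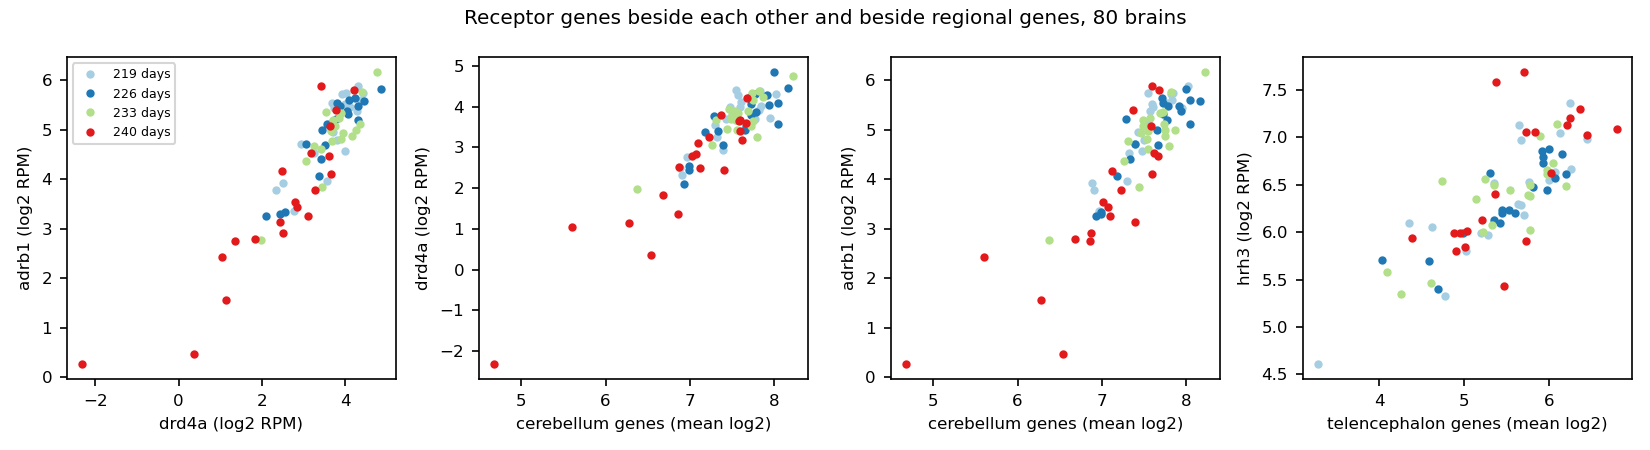
Log2 level of adrb1 against drd4a, of drd4a and adrb1 against the mean of 8 cerebellum markers, and of hrh3 against the mean of 8 telencephalon markers, 1 point per fish coloured by age. The first 3 panels have r of 0.92, 0.92 and 0.88, with several fish of 240 days at the low end, and the last has r = 0.78 with the ages mixed.

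Nicotinic subunit genes that lie beside each other gave 4 pairs of members within 100 kb. On chromosome 1, chrnb3a (22388799 to 22412042), chrna6 (22481723 to 22512136) and chrnb2a (22542457 to 22594338) stand in a row, and chrna6 correlated with chrnb2a at r = 0.73 (rho = 0.71) and with chrnb3a at r = 0.73 (rho = 0.74). Both had adjusted permutation p of 5.18e-05 for r over the 990 pairs, r of 0.71 and 0.72 with age means removed, and r of 0.64 and 0.63 with composition removed. chrnb2l and chrnb3b on chromosome 14 had r = 0.47 (rho = 0.46, adjusted p = 5.18e-05 and 0.000135), between 0.24 and 0.62 within ages. chrnb4 and chrna3 on chromosome 18 (50627085 to 50635419 and 50638006 to 50648476), at 14 and 12 reads in the median fish, had r = 0.27 (adjusted permutation p = 0.035) and rho = 0.14 (adjusted permutation p = 0.33), and r was 0.13 without the 2 extreme fish, so that relation rests on those fish. Counting rules for reads near such neighbours are not given in the sources used here.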

How the data were processed

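Whole-brain poly-A RNA was sequenced from 80 fish. The deposited table holds log2 expression values with 1 column for each fish, per the file headers. STAR 2.5.4b, Trim Galore 0.4.5, R 3.5.0, DESeq2 and the build GRCz11 come from the submitters' processing notes, which give them no role here; counting, strand and scaling are not given in the sources used here. Linear values moved in steps worth 1 read: up to 5000 reads, 100% came out whole to a tolerance of 0.02, and rows without reads hold 0.9 of a step. Scaled linear values add up to 1.27 to 1.42 times 1e+06 per library, so RPM here means reads over a library factor and is not exactly per 1e+06 reads. No length correction was applied, no transcript lengths or sequences were at hand, and the planned comparison of paralog levels was not made.

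Genes at a mean of 0 log2 or more (16170) went into limma 3.58.1 (R 4.3.3) with a mean-variance trend, 1 mean for each of 10 groups and the age added in age comparisons, two-sided, Benjamini-Hochberg over all tested genes, threshold 0.05. The script was tested on simulated counts. Exact tests over exposure replicate means are not given, because their genes were those of smallest p on the same fish. Named genes are the members called (up to 12 by p), the 3 of smallest p where none was, the 2 of highest level per family, those with the largest age share, and called genes of fixed pathway lists, up to 4 each. Members and lists were chosen with earlier results of these data known. The composition component is the first principal component of tested genes other than members, with age and condition left in. Symbols are those of the file; 23 of 45 members have the same symbol in the gene name table by identifier.

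Every replicate number has a single age in the labels, and on that ground same-numbered samples can be taken as paired. The main tests of exposure, mixture, level and sex left the number out. It was a block only in an alternative fit. Deviations of same-numbered exposure replicates correlated with a median r of 0.256 over 40 pairs (-0.0761 to 0.817, with 35 over 0.1). For other numbers the median r was -0.0971. As deviations were taken from each condition's own mean, positive values for same numbers draw those for other numbers toward negative ones. The -0.0971 is therefore no separate comparison. Libraries of 1 group differed beyond counting noise in all 280 pairs (lowest chi-square per degree of freedom 11.6).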

Additional observations from a re-analysis of the deposited data

Results flagged for a closer look

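In 105 sets of values of members (8 fish of 1 condition and sex, or 4 exposure replicate means), 12 held a value whose gap to its neighbour, as a share of the set's range, exceeded Dixon's 95% limit. Chance gives about 1 in 20. Of the 12 values, 11 came from fish of 240 days, and each set of 8 fish mixes 4 ages. The sets share fish and some genes were named for being lower at 240 days, so the sets are not separate and that share cannot be read for them as for separate sets. In control males, 1 fish was lowest in adrb1 (1.39 RPM, next 15.6), drd4a (1.29 RPM, next 9.06), adra2b (0.794 RPM, next 2.61), drd2a (0.298 RPM, next 1.1) and htr1b (0.0993 RPM, next 1.5), and it was the same fish each time. A POP10 male stood lowest in drd4a at 0.199 RPM (next 3.96), and another in adra2b at 0.141 RPM (next 1.29). A PFOS10 female was lowest in adrb1 at 11.6 RPM (next 33.5). In control females 1 fish was lowest in adra2b at 0.505 RPM and in htr2aa at 0.114 RPM. In control males 1 fish of 226 days was lowest in htr2aa at 0.401 RPM, and a POP70 female was highest in htr1aa at 73.0 RPM (next 51.2). Several low values lie at or near the floor: drd4a at 0.199 RPM is 2 reads, htr1b at 0.0993 RPM is 1 read and htr2aa at 0.114 RPM is 0 reads.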

How the results depend on the processing

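Of the 16 comparisons, those of exposure against control, mixture against PFOS at the low level, high against low level, exposure by sex and sex in control called 0 members in every alternative, including the fit with the replicate number as a replicate block (0 members in each). Alternatives that moved a count by over 1.5 times were these, and the cause was not tested. Shares of all genes called are not given beside these counts, so a shift cannot be read as particular to the receptors. Any exposure called 0 to 6 and POP70 against PFOS70 0 to 8 members with 1 replicate number left out. Those fits were over fish with no term for the bath, so their calls do not cover differences between baths. Sex over all conditions called 1 member with library weights. For any age, 24 became 8 at a filter of 10 RPM (18 members tested), 7 with the composition component, 13 over means of exposure replicates and 15 without PFOS70. For 226 days, 5 became 2 at 10 RPM, 8 with quantile normalization, 10 with log2 of RPM plus 1, 11 with voom, 3 with the correlation within exposure replicates (0.0768), 18 with library weights, 0 with composition, 1 over means of exposure replicates, 10 without control, 3 without POP10 and 1 without PFOS10. For 233 days, 2 became 1 at 10 RPM, 0 with the correlation within exposure replicates, 5 with library weights, 0 over means of exposure replicates, 0 without control, POP10 or POP70, and 1 without PFOS10. For 240 days, 19 became 5 at 10 RPM, a filter that keeps 18 members, of which the main fit also called 5. It became 0 with composition, 12 without PFOS10 and 8 without PFOS70. Signs were followed for the genes of smallest p in each comparison, up to 12. Of these, adra2b (0.18), drd2a (0.22), drd2b (0.061), htr1b (0.21), chrm3a (0.22), adra2db (0.24) and chrm4a (0.30) reversed with composition, all at 240 days. With 1 number left out, differences of exposure replicate means were -0.259 to -0.179 for htr1aa in PFOS10 and 0.992 to 1.13 for htr2aa in PFOS70. Among values of single named genes, 685 kept direction and call, 50 lost the call and 3 gained it. Leaving out the 2 fish lowest in drd4a, added after the data were seen, changed no count of members by over 1.5 times. Depth limits the members under 10 RPM, where the median fish of the lowest member had 12 reads.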
